A study of Mus musculus with 384 samples.

Results

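The 32 lysosomal genes described here were taken from a fixed list of cathepsins, other lysosomal hydrolases, their cofactors, lysosomal membrane proteins and the transcription factor Tfeb. Each was found as 1 row among the 46078 gene rows of the count tables. RNA was measured by SMART-seq2, which copies full-length transcripts, in single granulocyte/macrophage progenitors (GMPs) sorted from mouse bone marrow by the gate lin-, c-Kit+, Sca-1-, CD34+, FcγR+. The 384 wells fall into 4 sets of 96, here called BCR-ABL 1, BCR-ABL 2, BCR-ABL 4 and control. The BCR-ABL sets come from C57Bl/6 Scl-tTA::TRE-BCR/ABL mice, in which an Scl-driven transactivator turns on the leukaemia oncogene once doxycycline is withdrawn. These mice were bred on 20 mg/L doxycycline, induced at 5 weeks of age and studied 5 to 6 weeks later. The control set is labelled as C57Bl/6 GMPs, with no further genotype in the labels. Control mice were studied at the same time after induction, and the protocol, which is shared by all sets, names the doxycycline schedule for the BCR/ABL mice without saying whether controls also received it. The labels do not say whether a set is 1 animal or several, so a p-value measures only the spread between sets.

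Lysosomes are acidic compartments in which proteases called cathepsins, glycosidases and lipid-cleaving enzymes break down material from endocytosis, phagocytosis and autophagy. Tfeb and its relatives Tfe3 and Mitf are known to bind CACGTG-type sites near many lysosomal genes. GMPs give rise to monocytes, which depend on the transcription factor Irf8 and use cathepsins in antigen processing, and to neutrophils, whose primary granules are lysosome-related organelles filled with serine proteases such as Elane.

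Wells entered with 50000 or more gene reads and 1000 or more detected genes, 323 of 384: 76 in BCR-ABL 1, 61 in BCR-ABL 2, 92 in BCR-ABL 4 and 94 in control. The summed reads of a set ranged from 121378632 to 140995697. Cells are not replicates, so reads were summed over the cells of a set or class and given as counts per 1000000 gene reads (CPM). In such sums, fewer cells of a type and less RNA per cell cannot be told apart. Macrophage markers summed to between 31 and 102 CPM in the 4 sets, with 1 to 5 of 10 at 0. BCR-ABL 4 alone held eosinophil markers in quantity, 1257 CPM against at most 6.26 CPM in the other sets. There 1 cell gave 99.35% of the Epx and 99.37% of the Prg2 reads.

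Promoter windows of 300 bases, from 250 before to 50 after each RefSeq start (GRCm38.p6), were at hand for 29 of the 32 genes. The hexamer CACGTG, which reads the same on both strands, lay in a window of 9 of the 29 genes (31%), against 8.09% of 27025 genes. Its longer form TCACGTG, searched on both strands and always containing the hexamer, lay in 7 of the 29 (24.1%), against 4.29% of all genes. The 7 were Cln3, Ctsa, Ctsd, Gaa, Glb1, Lamp1 and Lgmn, while Ctsf and Ctsl held the hexamer alone. A match describes letters and is not evidence of binding. Lamp1 and Ctsd are printed because they hold the longer form and rank among the most abundant members. Ctss and Cd63 are printed because they differed most, in opposite directions, between the cell classes described below. Capitals mark CACGTG with a flanking T or A where it extends the match. In GENCODE vM21, whose assembly is that of the files, the members named most often below lie at chr10:60277627-60302597 (Psap), chr9:90054152-90076089 (Ctsh), chr3:95526786-95556403 (Ctss), chr10:128900989-128912822 (Cd63), chr17:34931253-34935953 (Neu1) and chr13:64359337-64370890 (Ctsl). The printed windows are chr8:13158911-13159210 (plus strand) for Lamp1, chr7:142387778-142388077 (minus) for Ctsd, chr3:95526536-95526835 (plus) for Ctss and chr10:128909095-128909394 (plus) for Cd63.
Lamp1: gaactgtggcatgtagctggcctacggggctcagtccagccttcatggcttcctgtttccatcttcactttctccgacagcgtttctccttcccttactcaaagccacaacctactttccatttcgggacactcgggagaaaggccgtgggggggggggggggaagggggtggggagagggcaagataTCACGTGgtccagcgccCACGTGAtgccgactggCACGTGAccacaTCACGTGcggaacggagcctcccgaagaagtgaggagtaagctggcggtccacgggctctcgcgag
Ctsd: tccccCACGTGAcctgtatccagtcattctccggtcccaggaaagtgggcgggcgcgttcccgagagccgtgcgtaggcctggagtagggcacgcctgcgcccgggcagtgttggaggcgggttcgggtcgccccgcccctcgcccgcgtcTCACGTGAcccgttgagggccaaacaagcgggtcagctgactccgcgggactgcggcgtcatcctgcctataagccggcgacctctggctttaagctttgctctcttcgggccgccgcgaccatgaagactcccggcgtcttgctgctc
Ctss: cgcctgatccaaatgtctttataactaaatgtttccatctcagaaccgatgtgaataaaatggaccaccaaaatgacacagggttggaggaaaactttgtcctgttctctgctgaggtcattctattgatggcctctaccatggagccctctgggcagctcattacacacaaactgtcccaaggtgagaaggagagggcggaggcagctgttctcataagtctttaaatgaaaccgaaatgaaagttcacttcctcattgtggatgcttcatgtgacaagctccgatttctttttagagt
Cd63: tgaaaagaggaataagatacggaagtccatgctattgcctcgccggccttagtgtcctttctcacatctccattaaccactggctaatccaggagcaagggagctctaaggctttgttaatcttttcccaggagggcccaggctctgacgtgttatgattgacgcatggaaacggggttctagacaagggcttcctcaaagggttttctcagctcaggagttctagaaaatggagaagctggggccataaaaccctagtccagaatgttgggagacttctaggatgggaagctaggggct
The Lamp1 window held 4 copies of the hexamer and the Ctsd window 2. The Ctss and Cd63 windows held none, which says only that these letters are not within the 300 bases searched.

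Per length, the most abundant member was Ctsz, a carboxypeptidase cathepsin, at 555, 562 and 427 reads per kilobase per 1000000 gene reads (RPKM) in BCR-ABL 1, 2 and 4 and 492 in control (mean 509 ± 63.3, SD, 4 sets). Lamp1, a heavily glycosylated protein of the lysosomal membrane, followed at 257 ± 70.6 RPKM over the 4 sets. Hexa, the alpha subunit of beta-hexosaminidase, was at 233 ± 79 RPKM, the aspartic protease Ctsd at 207 ± 23.8 and the membrane protein Laptm5 at 199 ± 14.3. The ranges of these 4 neighbours over the sets overlap, although Lamp1 lay above Hexa in every set. At the other end Ctsf averaged 1.18 ± 0.708 RPKM, Tfeb 0.84 ± 0.293 and the asparaginyl endopeptidase Lgmn 0.159 ± 0.303. In cells thinned to 674952 reads each, 14 members had at least 10 reads in 90% or more of the cells of every set, and Ctsf, Lgmn and Tfeb in under 15%. So 14 of 32 members were read in nearly every GMP, and these 3 in few.

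**Figure D1:**
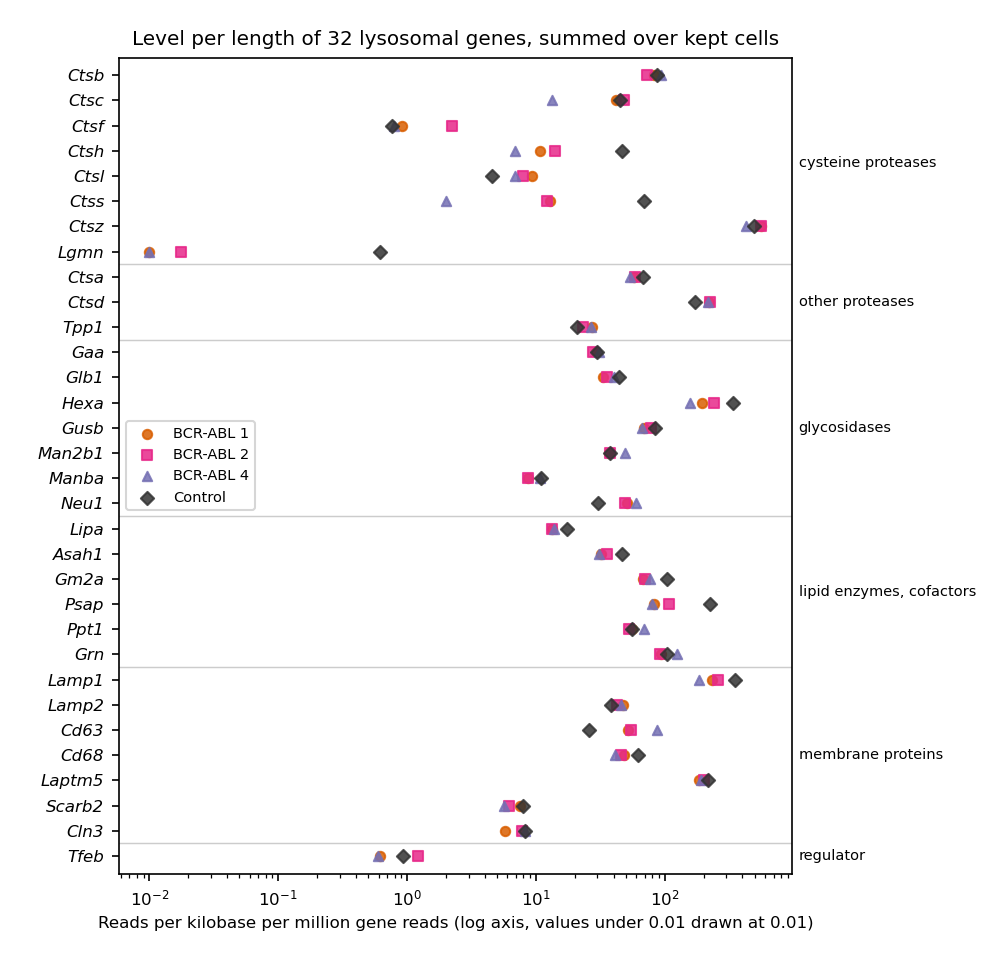
Level per length (RPKM, log axis) of each of the 32 genes in the summed cells of the 4 sets, 1 marker per set, grouped by role. Ctsz lies highest, at 427 to 562 RPKM, and Lgmn lowest; the 4 sets lie close together for most genes and far apart for Ctss, Ctsh and Lgmn.

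BCR-ABL sets were first compared with the control over all kept cells, which asks whether induction of the oncogene goes with another lysosomal profile. Psap, the precursor of the saposins that present lipids to hydrolases, and the cathepsins Ctsh and Ctss were lower in each BCR-ABL set than in control, while the tetraspanin Cd63, the sialidase Neu1 and the cathepsin Ctsl were higher. No difference passed edgeR's adjusted p of 0.05: of 20324 genes tested 0 were called (0.0%), with 1459 at an unadjusted p under 0.05, and DESeq2 called 562 (2.77%). Of the 32 members 0 were called by edgeR and 4 by DESeq2 (Neu1 and Cd63 higher, Psap and Ctsh lower). Unadjusted p values below 0.05 went to 4 members as higher and 8 as lower, where 3.79% and 3.39% of all genes were. The median log2 difference was -0.19 over members and 0.05 over all genes. All 3 BCR-ABL sets lay above the control for 7 members and below it for 16, against 23.2% and 27.8% of all genes, and 9 members overlapped.

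Among the 8 cysteine proteases 1 was higher and 3 were lower by the same unadjusted limit. Ctsh, which trims proteins from the amino end, was read at 48.3, 63.1 and 30.9 CPM in BCR-ABL 1, 2 and 4 and at 211 CPM in control. All BCR-ABL sets lay well below the control (log2 difference -2.13, SE 0.39, edgeR adjusted p = 0.619). One BCR-ABL 4 cell, which also held 99.4% of that set's Epx, an eosinophil granule gene, gave 34.5% of its Ctsh reads, and without it the set stood at 20.4 CPM. Ctss, an elastolytic cathepsin of antigen-presenting cells, was at 17.4, 16.5 and 2.74 CPM against 94 CPM in control. Its BCR-ABL values were all lower (log2 difference -2.91, SE 0.94, edgeR adjusted p = 0.669), and 1 cell gave 55.3% of the reads in BCR-ABL 4. Ctsl, a broad endopeptidase, was at 60.8, 51.2 and 44.9 CPM against 29.4 CPM. Here the BCR-ABL sets were the higher ones (log2 difference 0.85, SE 0.26, edgeR adjusted p = 0.659). Lgmn had 0, 5 and 1 reads in the BCR-ABL sets and 199 reads in control. Those 199 reads came from 3 of 94 cells, 115 of them from 1 cell, and the control cell with most of the macrophage transcript C1qc held 0 of them. Ctsc, the dipeptidyl peptidase that activates granule serine proteases, was at 241, 282 and 76.7 CPM against 263 CPM. BCR-ABL 4 was low and the other sets lay on both sides of the control.

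Of the 3 other proteases 1 was higher by that limit. Ctsd was at 513, 524 and 508 CPM in BCR-ABL 1, 2 and 4 and 404 CPM in control (log2 difference 0.37, SE 0.12, edgeR adjusted p = 0.669). The 3 BCR-ABL values lay within a narrow band above the control.

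Of 7 glycosidases 1 was higher and 1 lower by that limit. Neu1, which removes sialic acid, was at 191, 183 and 224 CPM against 114 CPM in control (log2 difference 0.82, SE 0.18, edgeR adjusted p = 0.619). Hexa went the other way, at 391, 478 and 312 CPM against 678 CPM (log2 difference -0.76, SE 0.26, edgeR adjusted p = 0.669). Both had all BCR-ABL sets on 1 side of the control.

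Of 6 lipid enzymes and cofactors 3 were lower by that limit and none higher. Psap was at 225, 297 and 219 CPM against 611 CPM in control, every BCR-ABL set far below the control (log2 difference -1.29, SE 0.22, edgeR adjusted p = 0.594). Gm2a, the activator protein with which hexosaminidase cleaves ganglioside, was at 282, 292 and 318 CPM against 431 CPM. The acid ceramidase Asah1 was at 108, 121 and 105 CPM against 159 CPM. The log2 differences of Gm2a and Asah1 were -0.52 (SE 0.13) and -0.49 (SE 0.16), with edgeR adjusted p of 0.637 and 0.669.

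Of 7 membrane proteins 1 was higher and 1 lower by that limit. Cd63, found in late endosomes and in the granules of granulocytes, was at 192, 200.3 and 318 CPM against 95.7 CPM in control. BCR-ABL 4 was the highest set and the control the lowest (log2 difference 1.32, SE 0.35, edgeR adjusted p = 0.642). The difference was 2.30 without cells that carried basophil or mast cell transcripts, described below. Lamp1 was at 619, 698 and 494 CPM against 942 CPM (log2 difference -0.62, SE 0.23, edgeR adjusted p = 0.684). Lamp2, an X-linked relative, was at 454, 409 and 433 CPM against 365 CPM. The sets differ in Xist, the X-inactivation transcript, at 324 CPM in BCR-ABL 1, 461 CPM in control, 0.156 CPM in BCR-ABL 4 and 0 in BCR-ABL 2. The part of this difference in the Lamp2 values, and in every other comparison with the control, was not tested. The other 20 members, at an unadjusted p of 0.05 or more, had log2 differences between -0.44 and 0.80.

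**Figure D2:**
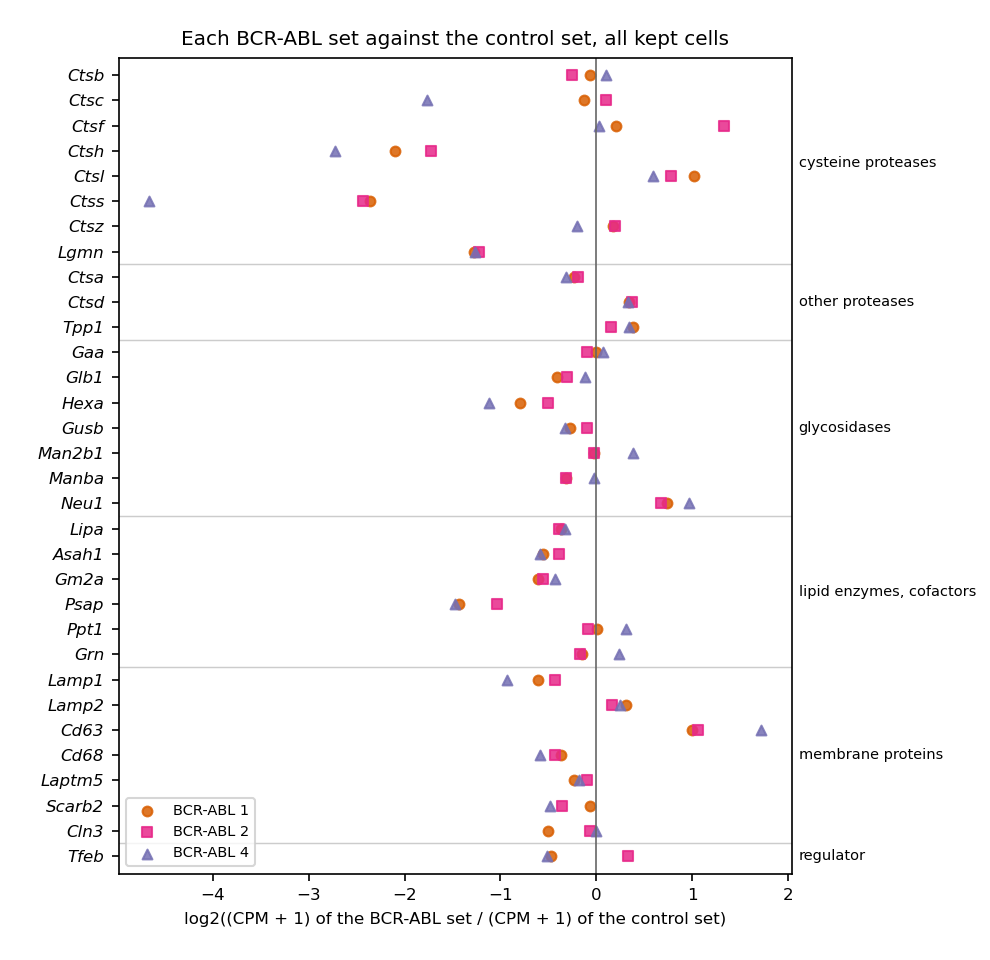
Log2 ratio of (CPM + 1) in each BCR-ABL set over the control for the 32 genes, grouped by role; the vertical line marks equal levels. Ctss, Ctsh and Psap lie left of the line and Cd63, Neu1 and Ctsl right of it in all 3 sets, while 9 genes straddle it.

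The sets differ in how many GMPs express Irf8, and monocyte and neutrophil markers differ with them. Cells with at least 10 Irf8 reads after thinning were 26 of 65 in BCR-ABL 1 (40%), 35 of 54 in BCR-ABL 2 (64.8%), 13 of 81 in BCR-ABL 4 (16%) and 78 of 90 in control (86.7%). Between 2 and 5 cells a set lay above but near the limit, with 10 to 49 reads. Below it, 21, 13, 19 and 12 cells of BCR-ABL 1, 2, 4 and control had 1 to 9 reads, and 18, 6, 49 and 0 had none. Every Irf8-low control cell thus held some Irf8 reads. A single cell held 53.9% of the Irf8 reads of BCR-ABL 4. The 8 monocyte markers summed to 677, 915 and 288 CPM in BCR-ABL 1, 2 and 4 and 2085 CPM in control, and all 8 had a negative log2 difference. The neutrophil markers summed to 35390, 32627 and 36567 CPM against 25529 CPM, and all 9 tested had a positive log2 difference (median 1.09). The part of these shares in the differences above was not tested. The comparisons within classes below give levels per class, and Irf8 levels differed between sets within the classes too.

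Irf8-expressing cells were then compared with Irf8-low cells of the same set, to see which members go with Irf8. Ctss, Ctsc, Ctsz, Psap, Lamp1, Gusb and others were higher in Irf8-expressing cells of all 4 sets, and Cd63 and Neu1 were lower. Of 17248 genes edgeR called 2 (0.0116%), Irf8 itself and the basophil protease Prss34, and DESeq2 called 1360 (7.88%). Lgmn was too low to be tested, and of the other 31 members edgeR called 0 and DESeq2 9. At an unadjusted p under 0.05 edgeR gave 9 members as higher and 4 as lower, against 6.7% and 6.05% of all genes. The level was higher in all 4 sets for 10 members and lower in all 4 for 4 members, against 11.3% and 11.6% of all genes. The median log2 difference was 0.16 over members and 0.03 over all genes.

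The cysteine proteases held 5 of the 9 higher members. Ctss stood at 34.9, 22.8, 9.90 and 108 CPM in the Irf8-expressing cells of BCR-ABL 1, 2, 4 and control, and at 0.0924, 0.0924, 0.657 and 0.744 CPM in their Irf8-low cells. No Irf8-low sum reached 1 CPM, and the classes did not overlap (log2 difference 6.78, SE 0.98, edgeR adjusted p = 0.162). Still, at least 10 Ctss reads were found in only 50%, 34.3%, 15.4% and 53.8% of the Irf8-expressing cells. BCR-ABL 4 also held Irf8-low cells with Ctss at 22.2 and 32.6 CPM after thinning. Ctsc stood at 434, 366, 129.8 and 282 CPM against 78, 53.5, 63.2 and 150.4 CPM (log2 difference 1.82, SE 0.39, edgeR adjusted p = 0.202). Ctsz stood at 1100.4, 909, 840.0 and 762 CPM against 560.4, 595, 559 and 390.5 CPM. Every Irf8-expressing level was above every Irf8-low level (log2 difference 0.80, SE 0.10, edgeR adjusted p = 0.152). Ctsh was higher in 3 sets, at 92.6, 82.5 and 235 CPM against 9.72, 14.8 and 71 CPM in BCR-ABL 1, 2 and control. In BCR-ABL 4 it was lower, 22 against 32.9 CPM, and the Epx-bearing cell is in that Irf8-low class. Ctsl stood at 68, 57.3, 53.4 and 30.7 CPM against 56.1, 39, 42.9 and 24.1 CPM.

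Other higher members were Psap, Lamp1, the beta-glucuronidase Gusb and the beta-mannosidase Manba. Psap stood at 278, 328, 261 and 682 CPM in Irf8-expressing cells against 188, 219, 210.1 and 179 CPM. The control gap was by far the widest (log2 difference over sets 0.86, SE 0.29, edgeR adjusted p = 0.325). Lamp1 stood at 774, 749, 538 and 1019 CPM against 499.7, 587, 492 and 466 CPM, with the smallest gap in BCR-ABL 4. Gusb stood at 364, 392, 392 and 423 CPM against 279, 258, 281 and 124 CPM. Manba stood at 62.9, 67.2, 91.9 and 78.7 CPM against 61.6, 45.2, 71.7 and 56.5 CPM. For Lamp1 and Gusb the edgeR adjusted p was above 0.05 (0.289 and 0.301, log2 differences 0.58 and 0.82).

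Cd63 ran opposite to these. It stood at 68.9, 111, 176 and 46.4 CPM in Irf8-expressing cells and at 291, 425, 352 and 421 CPM in Irf8-low cells, so that the lowest Irf8-low set was above the highest Irf8-expressing one (log2 difference -2.03, SE 0.36, edgeR adjusted p = 0.184). Neu1 stood at 152, 170.1, 165 and 97.5 CPM against 229, 219, 241 and 207 CPM, again without overlap of these sums (log2 difference -0.63, SE 0.14, edgeR adjusted p = 0.216). Man2b1, a lysosomal alpha-mannosidase, and Ppt1, which removes palmitate from proteins, were lower in all 4 sets by small amounts (log2 differences -0.27 and -0.29, edgeR adjusted p of 0.292 and 0.316). Man2b1 stood at 265, 275, 373 and 296 CPM in Irf8-expressing cells against 343, 352, 406 and 367 CPM, and Ppt1 at 183, 171, 219.6 and 202 CPM against 231, 241, 258 and 225 CPM. The 18 members without an unadjusted p below 0.05 had log2 differences between -1.95, for the scarce Ctsf, and 0.66.

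Markers of several cell types move with this contrast. All 8 monocyte markers, of which Irf8 itself is 1, had a positive log2 difference (median 2.43). A negative one was found for 7 of 9 neutrophil markers (median -1.52) and 4 of 4 eosinophil markers (median -4.77). The eosinophil markers summed to at most 6.26 CPM outside BCR-ABL 4. In BCR-ABL 4 the Irf8-low Epx-bearing cell held 99.35% of Epx and 99.37% of Prg2 reads. All 7 listed basophil or mast cell markers had a negative log2 difference, with a median of -5.57. Cells whose summed Cpa3, Mcpt8, Ms4a2, Fcer1a and Prss34 reached 100 CPM were 11 of 39, 8 of 19, 39 of 68 and 9 of 12 among Irf8-low cells of BCR-ABL 1, 2, 4 and control. Among Irf8-expressing cells they were 4 of 26, 5 of 35, 7 of 13 and 7 of 78. Cells with Cpa3 alone of at least 20 CPM were 4, 6, 13 and 8 of the same Irf8-low cells. Of the Irf8-expressing cells they were 1, 1, 2 and 4. In BCR-ABL 4, 2 of the 7 listed markers had 0 reads. Cd63 was high in Irf8-low cells with and without the summed markers. Its medians per cell were 298, 373, 298 and 390 CPM with them and 339, 350, 402 and 388 CPM without. In Irf8-expressing cells the Cd63 medians were 45.9, 161, 129 and 203 CPM with the markers and 45.9, 69.6, 135 and 8.89 CPM without. The marked cells there had the higher median in BCR-ABL 2 and control. Neu1 in Irf8-low cells had medians of 136, 80.7, 222 and 130 CPM with the markers and 217, 233, 261 and 444 CPM without. With and without markers together, its medians were 140, 157, 178 and 77 CPM in Irf8-expressing cells. In Irf8-low cells they were 200, 111, 242 and 140 CPM, so the medians of BCR-ABL 2 ran opposite to its summed levels. Leaving out the marker-bearing cells, which removed the control pair because only 3 Irf8-low cells remained, gave log2 differences of 6.49 for Ctss, -1.77 for Cd63 and -0.69 for Neu1. Psap then stood at 0.44 and Man2b1 at -0.23, against 0.86 and -0.27 with all cells of the 4 sets. The values without marker-bearing cells rest on the BCR-ABL sets alone. Loss of the control, where the Psap gap was widest, and loss of the marked cells cannot be told apart in them.

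**Figure D3:**
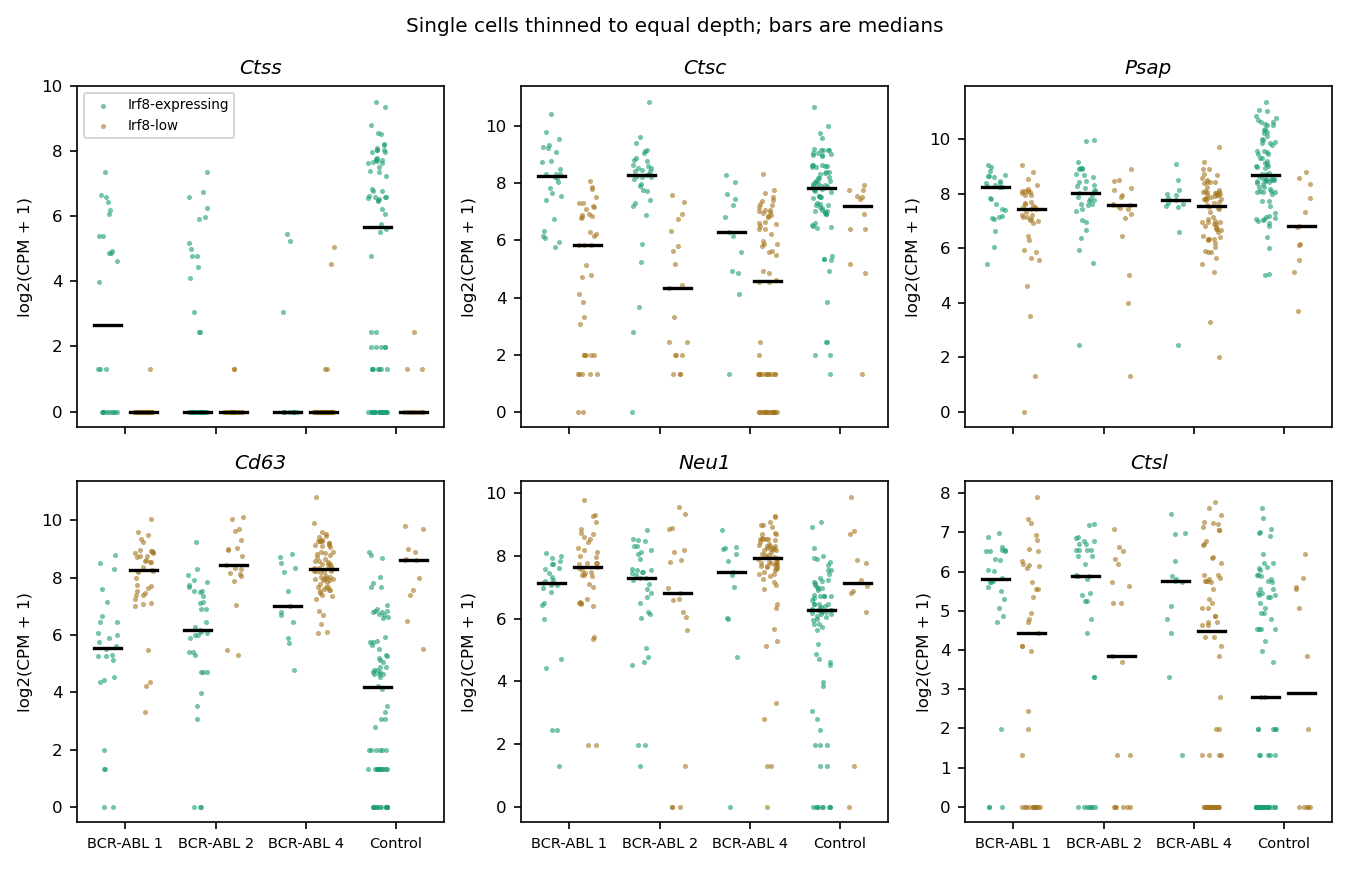
Log2(CPM + 1) of 6 members in single cells thinned to 674952 reads, by set and Irf8 class; each point is 1 cell and each bar a median. Outside BCR-ABL 4, Ctss reads lie almost wholly in Irf8-expressing cells, while in BCR-ABL 4 Irf8-low cells reach 22.2 and 32.6 CPM. Ctsc is shifted up in Irf8-expressing cells, and Cd63 is shifted down in them in every set.

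Granule-rich cells were defined within each set as those above the set's median of a score over Elane, Prtn3, Ctsg, Mpo and Prss57. Cd63 and Neu1 were higher and Ctss, Ctsc and Ctsz lower in the granule-rich cells of all 4 sets. Of 17397 genes edgeR called 2 (0.0115%), Elane and Mpo, both part of the score, and DESeq2 called 1060 (6.09%). Of 31 members edgeR called 0 and DESeq2 4: Cd63, Neu1, Ctss and Ctsc. Unadjusted p values below 0.05 went to 5 members as higher and 3 as lower, against 5.78% and 5.93% of all genes. The level was higher in all 4 sets for 2 members and lower in all 4 for 6 members, against 7.75% and 12.1% of all genes. Median log2 differences were 0.02 over members and -0.01 over all genes.

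Cd63 stood at 234, 243, 379.9 and 122 CPM in granule-rich cells of BCR-ABL 1, 2, 4 and control, and at 148, 153, 261 and 62.8 CPM in granule-poor cells (log2 difference 0.76, SE 0.09, edgeR adjusted p = 0.124). Cells bearing basophil or mast cell markers were 12 of 33, 10 of 27, 27 of 41 and 7 of 45 in the granule-poor class and 3 of 32, 3 of 27, 19 of 40 and 9 of 45 in the granule-rich class. Without them the log2 difference of Cd63 was 1.66. Neu1 stood at 229.6, 247, 265 and 147 CPM against 162, 123, 192 and 71.1 CPM (log2 difference 0.81, SE 0.13, edgeR adjusted p = 0.183). In each set the granule-rich level of both genes was above the granule-poor one. Ctss stood at 1.10, 4.92, 0.609 and 34.4 CPM against 29.1, 27.7, 4.24 and 163 CPM (log2 difference -2.95, SE 0.47, edgeR adjusted p = 0.174). Ctsc, although it activates the serine proteases of the score, was lower in granule-rich cells, at 88.9, 199.7, 49 and 219 CPM against 374, 357, 100.7 and 318 CPM. Its log2 difference was -1.06 (SE 0.26, edgeR adjusted p = 0.291). Ctsz stood at 599, 738, 531 and 675 CPM against 992, 905, 691 and 760.4 CPM. Ctsb, an abundant cathepsin, stood at 589, 517 and 638 CPM in granule-rich cells of BCR-ABL 1, 2 and 4 against 426, 371 and 499 CPM, but in control at 516 against 543 CPM. Hexa showed the same split, at 473, 512 and 368 CPM against 334, 449 and 267 CPM, and in control at 679.9 against 689 CPM. Ppt1 was higher in 3 sets and lower in BCR-ABL 2, where it stood at 185 against 195 CPM. The granule classes and the Irf8 classes overlap: 7, 15, 4 and 38 Irf8-expressing cells lay in the granule-rich class of the 4 sets and 19, 20, 9 and 40 in the granule-poor class.

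Across thinned cells, Ctss had a Spearman correlation with Irf8 of 0.64, 0.48, 0.30 and 0.54 in the 65, 54, 81 and 90 cells of BCR-ABL 1, 2, 4 and control, and Cd63 one of -0.50, -0.66, -0.30 and -0.64. Cells of a set are not replicates, and the values in BCR-ABL 4 were the weakest for both. No member reached 0.3 in size with 1 sign in all 4 sets.

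**Figure D4:**
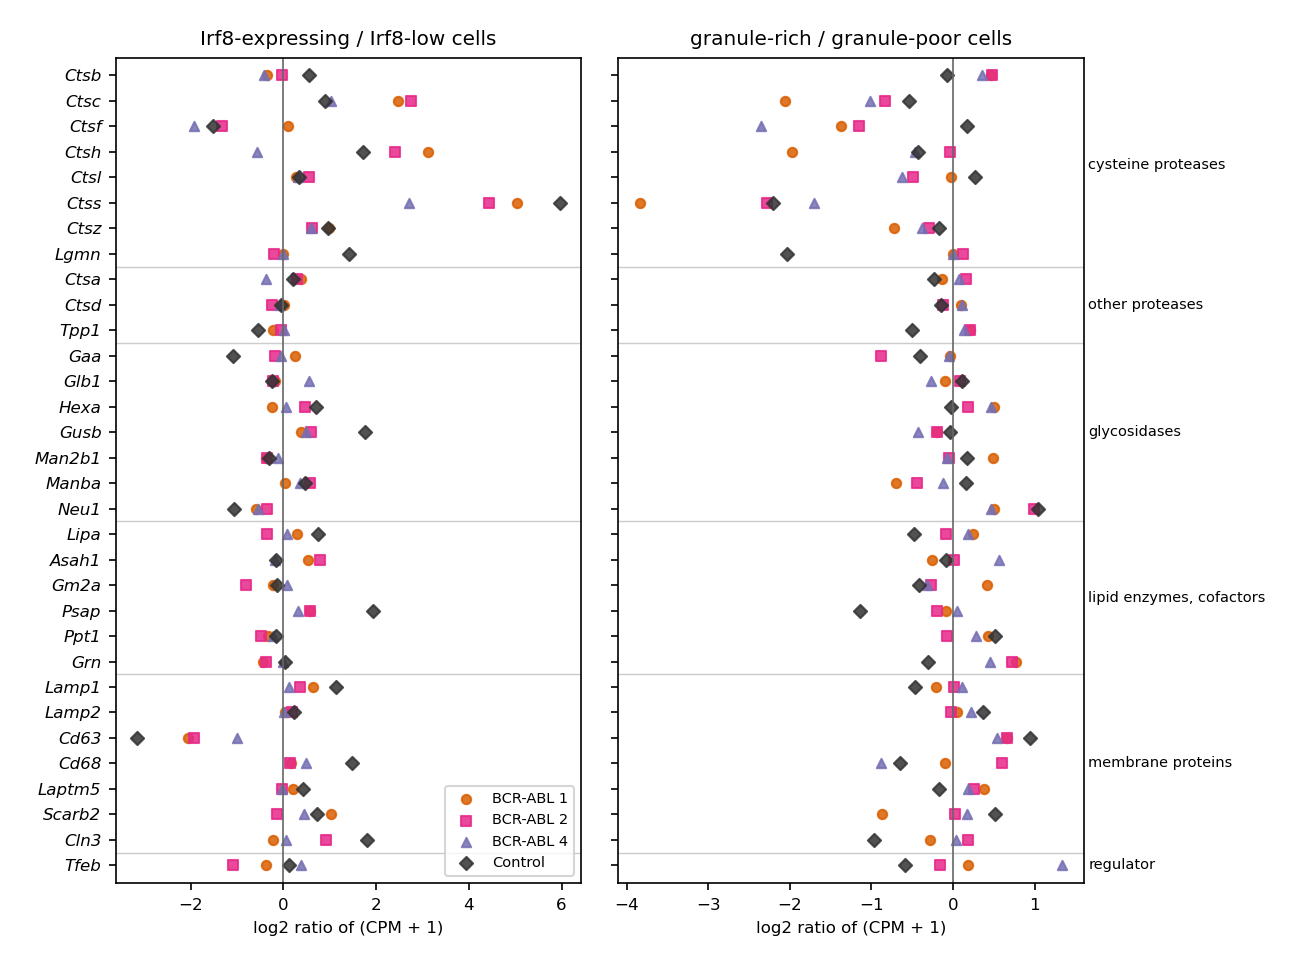
Log2 ratio of (CPM + 1) between Irf8-expressing and Irf8-low cells (left) and between granule-rich and granule-poor cells (right) of each set for the 32 genes. Ctss and Cd63 lie on opposite sides of the line in both panels, in all 4 sets.

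The next comparison asked whether BCR-ABL sets differ from control among Irf8-expressing cells alone. Psap and Ctss were again lower and Neu1 and Ctsl higher. Ctsh and Cd63 kept their side of the control in each BCR-ABL set, but without an unadjusted edgeR p under 0.05. Of 18005 genes edgeR called 0 (0.0%), with 899 at an unadjusted p under 0.05, and DESeq2 called 235 (1.31%). Of 32 members edgeR called 0 and DESeq2 3. Unadjusted p values below 0.05 went to 2 members as higher and 5 as lower, against 2.31% and 2.68% of all genes. Psap, at 278, 328 and 261 CPM against 682 CPM, had a log2 difference of -1.21 (SE 0.18, edgeR adjusted p = 0.933), close to that over all cells. Hexa stood at 361, 519 and 322 CPM against 719.6 CPM, and Gm2a at 262, 245 and 331 CPM against 426 CPM. Neu1 and Ctsl had log2 differences of 0.76 (SE 0.17) and 0.98 (SE 0.27), both with an edgeR adjusted p of 0.933. Irf8 itself differed within the class, at 566, 585 and 306 CPM against 1151 CPM, as did monocyte markers (8 of 8 negative, median -1.30) and neutrophil markers (9 of 9 positive, median 0.98), and their part in these values was not tested.

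Among Irf8-low cells the control had only 12 cells, of which 9 carried the basophil or mast cell markers and 1 held 99.2% of the control's C1qc reads. All 12 held 1 to 9 Irf8 reads after thinning, while the BCR-ABL sets also had cells with none. Marked cells were 11 of 39, 8 of 19 and 39 of 68 in the BCR-ABL sets. A fit without them was not run, since 3 control cells would remain and a class had to hold at least 5. Of 17454 genes edgeR called 0 (0.0%), with 3370 at an unadjusted p under 0.05, and DESeq2 called 2480 (14.2%). Of 31 members edgeR called 0 and DESeq2 7. Unadjusted p values below 0.05 went to 6 members as higher and 4 as lower, against 12% and 7.27% of all genes. The median over all genes was 0.24. Markers of cell types differed within this class too. Monocyte markers (6 of 8, median 1.09) and neutrophil markers (6 of 9, median 0.49) were mostly positive. Macrophage markers (7 of 8, median -8.0) and basophil or mast cell markers (7 of 7, median -1.79) were mostly or all negative. Their part in the values of this class was not tested. Gusb stood at 279, 258 and 281 CPM against 124 CPM in control (log2 difference 1.17, SE 0.16, edgeR adjusted p = 0.127), and Gaa, the acid alpha-glucosidase, at 132, 141 and 149.6 CPM against 266 CPM (-0.89, SE 0.14, edgeR adjusted p = 0.127). Cd68, a macrophage-associated membrane protein, stood at 58.6, 53.4 and 46.2 CPM against 30.3 CPM, and Cln3, a lysosomal membrane protein lost in juvenile Batten disease, at 35.5, 27.5 and 47 CPM against 14.3 CPM. Asah1 was lower, at 89.6, 78 and 107 CPM against 176 CPM, and Ctsc at 78, 53.5 and 63.2 CPM against 150.4 CPM. Ctsh was also lower, and its log2 difference of -1.88 became -1.20 with each gene's highest cell left out. Psap did not follow its pattern in the other class: it stood at 188, 219 and 210.1 CPM against 179 CPM. Nor did Cd63, for which the BCR-ABL sets lay on both sides of the control.

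The difference between the Irf8 contrasts was itself tested. Of 19372 genes edgeR called 0 (0.0%), with 2296 at an unadjusted p under 0.05, and DESeq2 called 1240 (6.4%). Of 32 members edgeR called 0 and DESeq2 7. At an unadjusted p under 0.05 the contrast was larger in BCR-ABL for 3 members and smaller for 6, against 3.92% and 7.93% of all genes, whose median was -0.27. Psap had the smallest p (log2 difference of contrasts -1.45, SE 0.20, edgeR adjusted p = 0.285), followed by Gusb (-1.29, SE 0.18, edgeR adjusted p = 0.285). For Gaa the contrast was larger in BCR-ABL (1.10, SE 0.24, edgeR adjusted p = 0.302) and for Cd63 it was less negative (1.5, SE 0.48, edgeR adjusted p = 0.371). Cd68, Ctsb, Lamp1 and Cln3 had smaller contrasts in BCR-ABL, by -1.24, -0.83, -0.76 and -1.63. All rest on the 12 Irf8-low control cells.

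**Figure D5:**
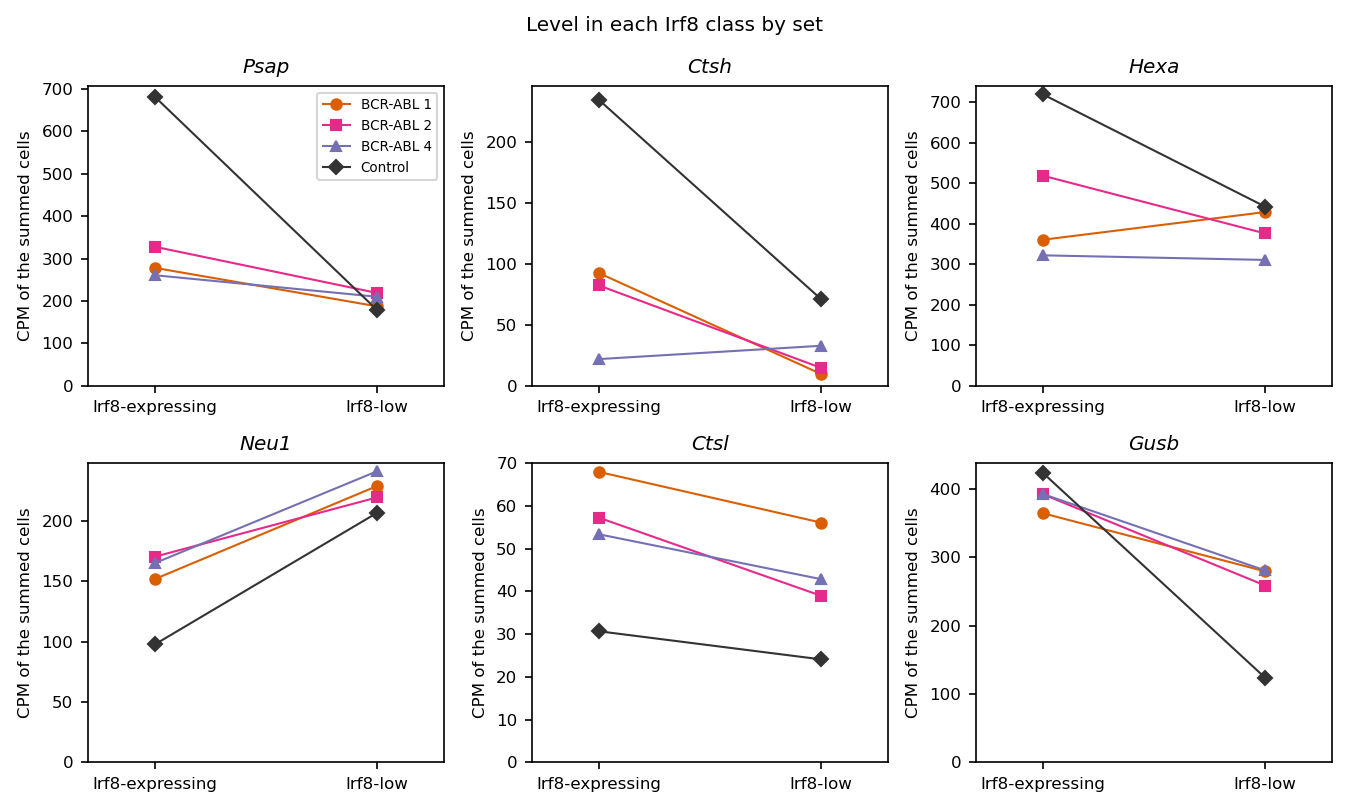
CPM of 6 members in the summed Irf8-expressing and Irf8-low cells of each set, with a line joining the classes of a set. The control line of Psap runs from 682 to 179 CPM and the BCR-ABL lines stay between 188 and 328 CPM; Ctsl is lower in control in both classes.

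Other lysosomal genes were read for comparison: 67 further hydrolases, cathepsin inhibitors, proton pump subunits, sorting receptors and regulators, of which 64 or 65 were tested. Of these, by an unadjusted p below 0.05, 4 were higher and 3 lower in BCR-ABL sets, 6 and 9 in Irf8-expressing cells, and 11 and 2 in granule-rich cells. The shares over all genes, in the same order, were 3.79% and 3.39%, 6.7% and 6.05%, and 5.78% and 5.93%. Npc2, a cholesterol carrier, was lower in BCR-ABL sets (log2 difference -0.60, SE 0.12, edgeR adjusted p = 0.619). Among inhibitors of cysteine cathepsins, Cst3 stood at 613, 575 and 553 CPM in BCR-ABL 1, 2 and 4 against 917 CPM in control. Cst7, an inhibitor found in granules, stood at 907, 792 and 993 CPM against 557 CPM. The 2 inhibitors thus lay on opposite sides of the control in every BCR-ABL set (edgeR adjusted p of 0.619 and 0.624), and Cstb, at 75.6, 83.6 and 64.3 CPM against 76.4 CPM, overlapped it. Tfe3 stood at 40.7, 26.9, 40.2 and 23.8 CPM in the Irf8-expressing cells of BCR-ABL 1, 2, 4 and control against 11.5, 3.33, 19.3 and 5.15 CPM in Irf8-low cells (log2 difference 2.04, SE 0.38, edgeR adjusted p = 0.184), higher in all 4 sets.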

How the data were processed

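The authors deposited raw read counts for each Ensembl gene and well, without normalisation. GSNAP, HTSeq 0.5.3p3 and the mm10 build are named in the submitters' processing notes. The annotation release and strand setting were not given in the sources used here, so a gene and its antisense or overlapping partner cannot be separated. Symbols came from GENCODE vM21. Reads carry no molecular identifiers. No doublet caller was run on the single-cell wells. Spike-in and summary rows, which name no gene, stayed out; 44.9% of reads lay on genes.

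Members and lists were chosen with earlier results of these data known. Raw counts were summed per set or class and tested with edgeR 4.0.16 in R 4.3.3 (quasi-likelihood, TMM, filterByExpr, Benjamini-Hochberg, threshold 0.05). Contrasts of classes kept the set as a block. DESeq2 1.42.0 was an alternative. The single control set is assumed to vary like the BCR-ABL sets, and for it condition and set cannot be told apart. Classes used 290 cells thinned to 674952 reads, leaving out 33. Named members were, per comparison, up to 8 a direction with the smallest p, and the 5 highest per length.

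The fit over all cells was tested on simulated data: of genes changed by 1, 2 and 3 on the log2 scale it recovered 7.7%, 47.7% and 62.9%, with 3 false calls among 19385 genes. The fit of the difference of contrasts recovered the least, 1.5%, 27.9% and 34.4%. The simulated spread followed a trend with level, with none particular to a gene. These shares therefore need not hold for the real genes.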

Additional observations from a re-analysis of the deposited data

Results flagged for a closer look

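For 2 genes the Irf8 contrast, and for 8 genes the granule contrast, had 1 sign in all 3 BCR-ABL sets and the opposite sign in the control set. Over all genes tested that split was found in 14.9% between Irf8 classes and 17% between granule classes, against 6.45% and 25.8% of the 31 members tested in each, and several control ratios are close to 0. Between Irf8 classes the control's log2 ratio was 0.56 for Ctsb and 0.03 for Grn. For Ctsb the difference of contrasts had an unadjusted edgeR p of 0.0166 and an adjusted p of 0.326. Between granule classes the control's log2 ratio was -0.07 for Ctsb, 0.17 for Ctsf, 0.27 for Ctsl, -0.31 for Grn, -0.02 for Hexa, -0.17 for Laptm5, 0.16 for Manba and -0.51 for Tpp1. Those granule differences were not tested, and with 1 control set its spread is not known.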

How the results depend on the processing

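No single-gene value changed sign: of 752 values for 58 gene and comparison pairs under the alternatives, 719 kept their side of the adjusted threshold and 33 passed it, all 33 with DESeq2. In the main edgeR fits no member passed that threshold, so keeping a side meant staying uncalled. The unadjusted limit of 0.05 was held less often. Between Irf8 classes Ctsz, Ctss, Ctsc, Gusb, Cd63 and Neu1 met it in all 15 alternatives. Lamp1 met it in 14, Psap in 13, Ppt1 in 9, Man2b1 in 8, Ctsl in 7 and Manba in 6. DESeq2 called 4, 9, 4, 3, 7 and 7 members in the 6 comparisons in the order of the report, and 562, 1360, 1060, 235, 2480 and 1240 genes, where edgeR called 0 members. Members at an unadjusted p under 0.05 ranged, with 1 set left out, from 6 to 12 over all cells, 8 to 11 between Irf8 classes, 4 to 11 between granule classes, 4 to 12 within Irf8-expressing and 5 to 10 within Irf8-low cells. Without the replicate block of sets it was 4 between granule classes. The 2 genes called between Irf8 classes became 1 without the replicate block and 1 with each gene's highest cell left out, 4 with no filter, 5 in thinned cells and 1 to 2 with 1 set left out. The 2 called between granule classes became 1 without the replicate block, 1 with cells of at least 200000 reads, 0 without each gene's highest cell, 0 with 1 median over all sets, 8 with no filter, 10 with a summed score and 0 to 1 with 1 set left out.

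After seeing the data, 2 definitions of cells with basophil or mast cell transcripts were tried: 5 summed markers of at least 100 CPM, then Cpa3 alone of at least 20 CPM, which marks fewer cells. Both are given. Genes called between Irf8 classes were 0 under the first and 1 under the second, and the control pair dropped out of both. The median log2 difference of members over all cells was -0.18 and -0.26. Cd63 over all cells was 2.30 and 2.01, and between granule classes 1.66 and 1.59. Fits within Irf8-low cells and of the difference of contrasts were not run, as 3 and 4 control cells remained and a class had to hold at least 5.

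Depth limits Lgmn, Ctsf and Tfeb, with few reads. With 2 or 3 residual degrees of freedom, a p above the threshold does not show equal levels.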
